A study of Mus musculus with 8 samples.

Results

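The variable segments of the antigen receptors were followed in mouse melanoma tumors, library by library. They were taken as every row of the expression table whose symbol begins with Ighv, Igkv, Iglv, Trav or Trbv. This gave 142 of 28918 genes: 28 of the immunoglobulin heavy chain, 36 of the kappa light chain, 2 of the lambda light chain, 57 of the T cell receptor alpha chain and 19 of the beta chain. The choice used symbols and no measured value.

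B cells and T cells each build their own antigen receptor by joining 1 variable segment of a locus to joining segments, and in heavy and beta chains also to a diversity segment. An antibody pairs a heavy chain with a kappa or a lambda light chain, and the common T cell receptor pairs an alpha with a beta chain. Transcripts of the rearranged gene run from the variable segment into a constant gene, so that which segments are read tells which lymphocytes' receptors were sampled, and antibody-secreting cells carry far more of these transcripts than resting B cells. In bulk tumor RNA, fewer cells of a type and less RNA per cell cannot be told apart.

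The cells were B16-mhgp100, a line of the mouse melanoma B16 with a gp100 antigen, grown under the skin of C57BL/6 mice that have their own lymphocytes. Colq tumors over-expressed Colq, the collagen-like tail that anchors acetylcholinesterase, and vector tumors carried the empty vector; no source used here says whether either line was 1 clone. Every mouse of both groups received an antibody to PD-1, an inhibitory receptor of T cells, in 4 doses of 200 µg from day 10, at 2 doses a week, so there was no group without it. RNA was read from 3 Colq tumors in 3 libraries and from 3 vector tumors in 5 libraries, since vector tumors 1 and 2 were each sequenced as 2 portions. Values are given as TPM, a share of all transcripts that is scaled to gene length. Means and SDs are over 3 tumors a group, with portions averaged, and TPM keeps no record of library depth.

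The germline sequences of the segments that carried most of the signal are shown first, because the results below name them one by one. They come from the GENCODE M21 transcripts on build GRCm38, an earlier build than the authors' mm39, and are read 5′ to 3′ along the gene. Capitals mark the codon of the conserved cysteine at which the third complementarity-determining region begins, the stretch that rearrangement makes different in each lymphocyte clone. It was found as a tyrosine codon, any codon and a cysteine codon (TATNNNTGT, TATNNNTGC, TACNNNTGT or TACNNNTGC, coding strand, last 45 bases), which 439 of 509 annotated variable segments held (86.2%). Igkv1-135 (chr6:67610209-67610508, plus strand) and Igkv14-126 (chr6:67896345-67896642, plus strand) were the kappa segments of highest level in Colq tumors.
Igkv1-135: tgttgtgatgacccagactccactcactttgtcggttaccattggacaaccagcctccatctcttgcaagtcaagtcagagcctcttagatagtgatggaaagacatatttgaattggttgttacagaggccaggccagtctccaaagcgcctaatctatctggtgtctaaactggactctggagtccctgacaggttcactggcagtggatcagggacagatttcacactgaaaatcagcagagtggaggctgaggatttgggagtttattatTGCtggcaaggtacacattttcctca
Igkv14-126: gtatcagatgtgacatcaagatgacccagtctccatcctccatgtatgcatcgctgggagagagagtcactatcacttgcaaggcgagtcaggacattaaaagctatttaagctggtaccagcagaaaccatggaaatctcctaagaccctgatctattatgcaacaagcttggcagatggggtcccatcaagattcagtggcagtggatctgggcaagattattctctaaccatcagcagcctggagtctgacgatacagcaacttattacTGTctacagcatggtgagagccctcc
Ighv9-4 (chr12:114299961-114300260, minus strand) and Ighv11-2 (chr12:114048241-114048540, minus strand) were the heavy chain segments of highest level in Colq tumors.
Ighv9-4: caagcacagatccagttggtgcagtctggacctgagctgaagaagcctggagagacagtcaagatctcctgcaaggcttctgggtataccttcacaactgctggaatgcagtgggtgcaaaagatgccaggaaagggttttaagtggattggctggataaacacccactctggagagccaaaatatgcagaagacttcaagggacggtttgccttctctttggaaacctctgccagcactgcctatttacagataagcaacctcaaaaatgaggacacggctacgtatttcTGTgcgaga
Ighv11-2: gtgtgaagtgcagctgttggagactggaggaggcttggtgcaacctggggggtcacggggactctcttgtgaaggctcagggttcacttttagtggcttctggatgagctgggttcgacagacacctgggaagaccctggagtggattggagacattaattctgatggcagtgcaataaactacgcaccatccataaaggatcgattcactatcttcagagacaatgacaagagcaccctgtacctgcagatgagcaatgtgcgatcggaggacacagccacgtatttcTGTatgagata
Iglv1 (chr16:19085017-19085316, minus strand) led the lambda segments and Trbv16 (chr6:41151933-41152230, plus strand) the beta segments.
Iglv1: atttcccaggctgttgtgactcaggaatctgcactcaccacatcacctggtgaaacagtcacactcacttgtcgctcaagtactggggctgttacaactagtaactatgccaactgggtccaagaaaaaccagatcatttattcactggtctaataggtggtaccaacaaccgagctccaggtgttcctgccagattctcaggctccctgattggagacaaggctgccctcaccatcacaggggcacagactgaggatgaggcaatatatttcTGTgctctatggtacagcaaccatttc
Trbv16: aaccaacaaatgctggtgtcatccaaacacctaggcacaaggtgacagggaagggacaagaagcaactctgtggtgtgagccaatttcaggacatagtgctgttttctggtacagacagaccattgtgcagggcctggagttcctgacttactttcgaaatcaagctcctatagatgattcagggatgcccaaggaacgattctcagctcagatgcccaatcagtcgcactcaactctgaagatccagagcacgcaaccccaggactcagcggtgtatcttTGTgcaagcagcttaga
Trav6-6 (chr14:53517277-53517366, plus strand) and Trav6d-6 (chr14:52822270-52822359, plus strand) are shown because their last 90 bases do not differ, a case that recurs among alpha segments.
Trav6-6: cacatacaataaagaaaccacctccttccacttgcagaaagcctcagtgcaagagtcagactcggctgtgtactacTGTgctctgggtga
Trav6d-6: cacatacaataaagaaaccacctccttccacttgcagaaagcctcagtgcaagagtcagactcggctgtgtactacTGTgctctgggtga

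How far a read can name its segment differs between chains. Over the exon that holds most of the segment, alpha members were a median of 99.3% identical to their nearest annotated variable segment, and 22 of 56 had a copy that was 100% identical. Among alpha members above 0 in at least 2 libraries, 5 pairs had the same deposited values in all 8 libraries, Trav6-6 with Trav6d-6 among them. Beta members were the most distinct, with a median of 67.2% and 0 of 19 at 95% or more. Heavy chain (median 95.9%) and kappa members (95.01%) lay between. Of the segments printed above, Ighv11-2 was 98.7% identical to Ighv11-1, Iglv1 97.0% to Iglv2, Igkv1-135 96.5% to Igkv1-133, Ighv9-4 91.5% to Ighv9-3, Igkv14-126 90.9% to Igkv14-111 and Trbv16 73.4% to Trbv15. How reads were split between such copies was set by the authors' estimation, so values of single heavy chain, kappa, lambda and alpha segments are uncertain to that degree.

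Colq itself stood at 4.05, 5.03 and 3.86 TPM in the libraries labelled Colq and at 0 to 0.24 TPM in those labelled vector (log2 difference 2.24, SE 0.16, adjusted p = 2.8e-05, limma). The libraries differed in ways that touch these values. Over genes with a mean of at least 1 TPM, the 3 Colq libraries correlated at 0.983 to 0.985 with one another on the log2 scale. The 2 portions of 1 vector tumor correlated at 0.969 to 0.970, within the range of different vector tumors (0.964 to 0.978). Colq libraries labelled as separate tumors were thus closer than pieces of the same vector tumor. That the Colq libraries come from separate tumors rests on the labels alone and should be checked. Each SD and n = 3 given for Colq holds only if they do. Skeletal muscle markers summed to 850.2 to 872 TPM in Colq libraries and 32.2 to 158 TPM in vector libraries, and all 8 of 8 were called higher in Colq tumors (adjusted p under 0.05, limma), where 11.3% of all tested genes were called higher and 59.6% lower. Scaling by size factors moved these shares to 27.3% higher and 26.8% lower, and the median of all genes from a log2 difference of -0.50 to -0.014. Of 7 melanocyte markers 6 were called lower and 0 higher, or 4 lower and 2 higher after size factors, with sums of 10949 to 11272 TPM in Colq and 17604 to 22339 TPM in vector libraries. Of 5 skin markers 4 were called higher in Colq tumors, with sums of 35.8 to 41.3 TPM in Colq and 0 to 192.6 TPM in vector libraries. The part of muscle, skin and melanocyte content in the results below was not tested. Genes under 600 bases, the class of all 141 members with an annotated length, had a median log2 difference of 0.48 between Colq and vector tumors, against -0.50 over all 13726 genes tested, and variable segments had a median exonic length of 370 bases.

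Variable segments were read more widely in Colq tumors, and the immunoglobulin chains made up most of that difference. In all, 121 of 142 segments were above 0 in a library and 21 were listed at 0 in all 8. Colq libraries held 52, 51 and 46 segments above 0. The vector libraries held 20 and 12 in the portions of tumor 1, 25 and 17 in those of tumor 2, and 10 in tumor 3. Among immunoglobulin segments the numbers were 26, 27 and 26 in Colq libraries and 0 to 9 in vector libraries, with no overlap. Among T cell receptor segments they were 26, 24 and 20 in Colq libraries and 9 to 19 in vector libraries, also with no overlap. Counted from 0.5 TPM, T cell receptor segments numbered 14, 19 and 15 in Colq libraries and 7 to 14 in vector libraries, which meet at 14. Immunoglobulin segments stayed apart on that count, at 23 to 27 in Colq libraries and 0 to 8 in vector libraries. Numbers of genes above 0 were apart as well, at 21005, 21310 and 21602 in Colq libraries and 19887 to 20894 in vector libraries. The part of library depth in these numbers was not tested. No segment was above 0 in all 8 libraries.

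A mean of at least 1 TPM over the 6 tumors left 12 of the 142 segments to be tested with limma on log2(TPM + 1), and all 12 were called higher in Colq tumors at an adjusted p under 0.05, where 11.3% of the 13726 genes were called higher and 59.6% lower. That count is no support for a difference, because each of the 12 passed the filter only through its level in Colq tumors: 0 had a vector mean of 1 TPM or more. The adjusted p-values of these segments carry the same choice, so those of the unfiltered fit stand beside them below. The 12 were 7 kappa, 2 heavy chain, 1 lambda and 2 beta segments, and of the tested genes under 600 bases 32.5% were called higher and 8.06% lower. With the trend on gene length removed 8 of the 12 were called, where 20.4% of genes were higher. When the mean of the Colq libraries entered as a single sample, whose spread was then taken from the vector tumors alone, 12 were called, where 5.74% of genes were higher. The last segments inside the filter were Igkv6-15 and Igkv5-48, with means over the 6 tumors of 1.004 and 1.002 TPM. The first outside it were Trav8n-2 and Igkv8-30, with means of 0.993 and 0.912 TPM.

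With no filter, the same fit took in 121 segments, of which 14 were called higher and 0 lower in Colq tumors, against 6.29% called higher and 29.3% lower of 27546 genes. Of the 14, 9 were among the 12. At an unadjusted p under 0.05 the unfiltered fit gave 19 segments higher and 0 lower, where 8.5% of all genes were higher and 33.8% lower. The median log2 difference of the 121 was 0.20, against -0.087 over all genes. It was 0.42 over 26 kappa segments, of which 24 had a positive difference, and 0.33 over 22 heavy chain segments, of which 17 did. The medians of 0.12 over 18 beta and 0.080 over 53 alpha segments were smaller, with 11 and 29 positive differences. In 15 segments every Colq library was above every vector library, where 7% of the genes above 0 in a library had this pattern. In 0 segments every Colq library was below, where 30.6% of those genes had that pattern. Every segment was listed at 0 in some vector library, so none could have been below. Those 15 were 8 kappa, 5 heavy chain, 1 lambda and 1 beta segment, and no alpha segment. Of these, 12 were above 0 in all 3 Colq libraries and listed at 0 in all 5 vector libraries, a pattern of 0.581% of genes.

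**Figure D1:**
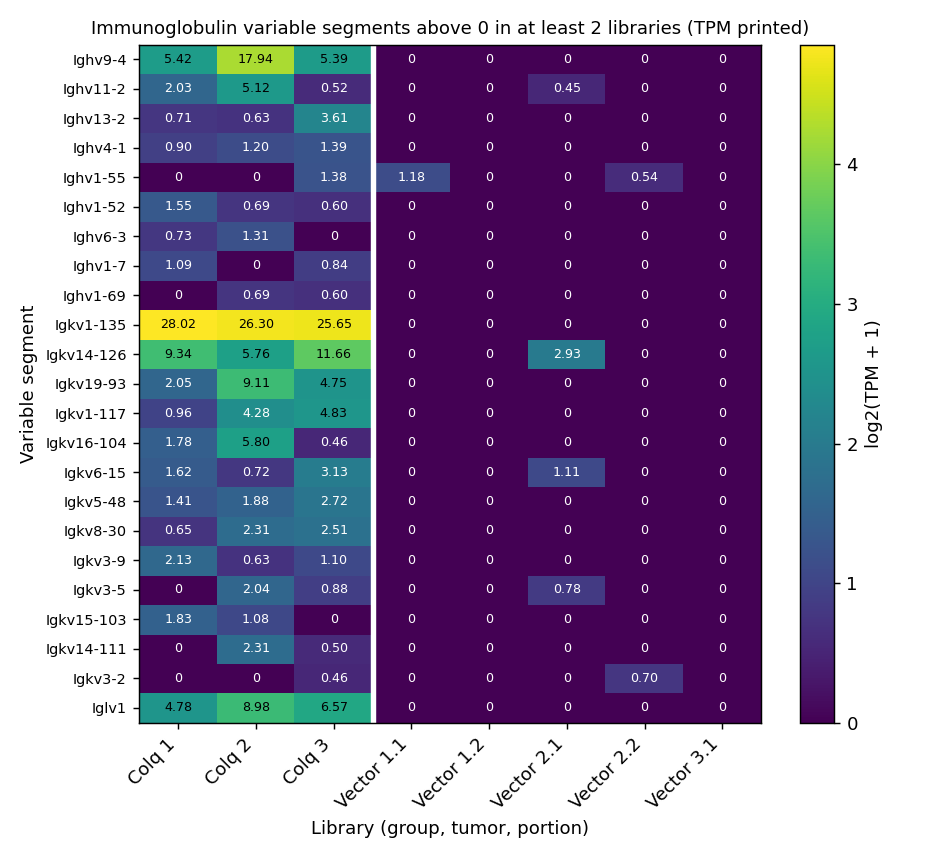
TPM of the immunoglobulin variable segments above 0 in at least 2 libraries (rows), in 3 Colq libraries at the left of the white line and 5 vector libraries at the right (columns, named by tumor and portion); the colour is log2(TPM + 1). Igkv1-135 stands at 28.0, 26.3 and 25.7 TPM in Colq libraries and is listed at 0 in each vector library. The only vector libraries with values above 0 in these rows are those of tumor 2 and the first portion of tumor 1.

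Heavy chain variable segments encode most of the part of the heavy chain that meets the antigen. Ighv9-4 was the leading heavy chain segment in each Colq library, at 5.42, 17.9 and 5.39 TPM, and it was listed at 0 in all 5 vector libraries. It made up 37.6%, 54.5% and 33.6% of the heavy chain segment TPM in Colq tumors 1, 2 and 3. Its log2 difference was 3.20 (SE 0.41, adjusted p = 3.0e-04 with the filter and 0.0020 without, limma), a size that depends on the pseudocount of 1, since vector tumors were at 0.

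Ighv11-2 was at 2.03, 5.12 and 0.52 TPM in Colq libraries, against 0.45 TPM in the first portion of vector tumor 2 and 0 in the other 4 vector libraries. The lowest Colq library and the highest vector library were close, and the log2 difference of 1.52 (SE 0.47, adjusted p = 0.021, limma) was not called without the filter (adjusted p = 0.056), with the trend on gene length removed (0.093), without Colq replicate 1 (0.055) or without Vector replicate 1 (0.063). In mice, Ighv11-2 is known from B-1a cells, a self-renewing B cell population of the body cavities, where it often pairs with Igkv14-126 in antibodies that bind phosphatidylcholine. Ighv12-3, the other heavy chain segment known for that binding, was at 0.76 TPM in Colq tumor 1 and at 0 in the other 7 libraries, and its usual partner Igkv4-91 was at 0.72 TPM in the same library and at 0 elsewhere. That pair of segments was picked out after the values were seen.

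Ighv13-2 (0.71, 0.63 and 3.61 TPM), Ighv4-1 (0.90, 1.20 and 1.39 TPM) and Ighv1-52 (1.55, 0.69 and 0.60 TPM) were above 0 in each Colq library and listed at 0 in each vector library. Their means were below the filter. Without it, Ighv4-1 had a log2 difference of 1.11 (SE 0.10, adjusted p = 4.1e-04, limma) and Ighv1-52 one of 0.93 (SE 0.18, adjusted p = 0.0086, limma). Ighv1-39 reached 3.45 TPM in Colq tumor 2 and 0 in the other 7 libraries, so that its Colq mean rests on 1 tumor.

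In vector tumors each heavy chain segment was seen in 1 library, except Ighv1-55. Ighv1-55 was at 1.38 TPM in Colq tumor 3 and 0 in Colq tumors 1 and 2, against 1.18 TPM in the first portion of vector tumor 1, 0.54 TPM in the second portion of vector tumor 2 and 0 in the other 3 vector libraries. Ighv1-26 (2.11 TPM), Ighv1-53 (1.06 TPM) and Ighv10-1 (0.97 TPM) were above 0 in the first portion of vector tumor 2 alone, Ighv9-3 (0.90 TPM) in its second portion alone, and Ighv6-4 (1.41 TPM) in vector tumor 3 alone. The 2 portions of a vector tumor shared 0 heavy chain segments. The second portion of vector tumor 1 held none above 0.

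Kappa chains are the light chains of most mouse antibodies. Igkv1-135 was the variable segment of highest level in the whole table, at 28.0, 26.3 and 25.7 TPM in Colq libraries, and it was listed at 0 in all 5 vector libraries. The mean of the 3 Colq libraries was 26.7 ± 1.22 TPM (SD, n = 3). Its log2 difference was 4.79 (SE 0.10, adjusted p = 1.2e-06 with the filter and 5.9e-05 without, limma), and 4.26 with the trend on gene length removed. It made up 52.1%, 40.3% and 42.4% of the kappa segment TPM of Colq tumors 1, 2 and 3.

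Igkv14-126 was at 9.34, 5.76 and 11.7 TPM in Colq libraries, against 2.93 TPM in the first portion of vector tumor 2 and 0 in the other 4 vector libraries. The groups did not overlap, and the log2 difference was 2.93 (SE 0.34, adjusted p = 1.8e-04 with the filter and 0.0014 without, limma). Igkv19-93 was at 2.05, 9.11 and 4.75 TPM in Colq libraries and 0 in vector libraries, with a log2 difference of 2.49 (SE 0.40, adjusted p = 9.3e-04 with the filter and 0.0048 without, limma). Across Colq tumors Igkv19-93 spread more widely than Igkv1-135.

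Igkv1-117 was at 0.96, 4.28 and 4.83 TPM in Colq libraries and 0 in vector libraries (log2 difference 1.97, SE 0.40, adjusted p = 0.0033 with the filter and 0.012 without, limma). Igkv5-48 was at 1.41, 1.88 and 2.72 TPM in Colq libraries and 0 in vector libraries (log2 difference 1.56, SE 0.21, adjusted p = 4.2e-04 with the filter and 7.9e-04 without, limma). Igkv16-104 was at 1.78, 5.80 and 0.46 TPM in Colq libraries and 0 in vector libraries (log2 difference 1.60, SE 0.51, adjusted p = 0.024, limma). The call of Igkv16-104 was lost without the filter (adjusted p = 0.063), with the length trend removed (0.11), and without Colq replicate 1 (0.054), Vector replicate 1 (0.065) or Vector replicate 2 (0.061).

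Igkv6-15 was at 1.62, 0.72 and 3.13 TPM in Colq libraries, against 1.11 TPM in the first portion of vector tumor 2 and 0 in the other 4. Here the groups overlapped, since Colq tumor 2 lay below that vector portion, and the log2 difference of 1.23 (SE 0.34, adjusted p = 0.014 with the filter and 0.034 without, limma) was not called on first portions only (adjusted p = 0.063) or with the length trend removed (0.18). Igkv8-30 (0.65, 2.31 and 2.51 TPM) and Igkv3-9 (2.13, 0.63 and 1.10 TPM) were above 0 in each Colq library and listed at 0 in each vector library, below the filter. Without it, their log2 differences were 1.42 (SE 0.30, adjusted p = 0.011, limma) and 1.14 (SE 0.23, adjusted p = 0.010, limma).

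In vector tumors the kappa segments came from a single tumor. The first portion of vector tumor 2 held Igkv14-126 (2.93 TPM), Igkv6-15 (1.11 TPM), Igkv10-96 (0.97 TPM), Igkv4-55 (0.80 TPM) and Igkv3-5 (0.78 TPM). Its second portion held Igkv3-2 (0.70 TPM) and none of those. Vector tumors 1 and 3 held no kappa segment above 0. Of the 24 kappa segments above 0 in a Colq tumor, 9 were above 0 in all 3, 3 in 2 and 12 in 1. Igkv3-5, at 0, 2.04 and 0.88 TPM in Colq libraries, was one of 4 seen in both groups.

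Segments were also summed by the family number in the symbol. The 3 Igkv1 members summed to 29.5, 30.6 and 30.5 TPM in Colq libraries and 0 in each vector library. The pair of Igkv14 members, Igkv14-126 and Igkv14-111, summed to 9.34, 8.07 and 12.2 TPM in Colq libraries, against 2.93 TPM in the first portion of vector tumor 2 and 0 in the other 4. Both sums spread less across Colq tumors than their leading segments. Igkv6 members (1.62, 0.72 and 4.05 TPM in Colq libraries) and Igkv8 members (0.65, 3.87 and 2.51 TPM) went the other way, spreading more than Igkv6-15 and Igkv8-30.

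Lambda chains are the minor light chain of the mouse, and Iglv1 is its most used variable segment. Iglv1 was at 4.78, 8.98 and 6.57 TPM in Colq libraries and listed at 0 in all 5 vector libraries, a log2 difference of 2.92 (SE 0.22, adjusted p = 3.0e-05 with the filter and 2.3e-04 without, limma). Iglv2 was at 0.66 TPM in Colq tumor 1 and at 0 in the other 7 libraries. The 2 sequences are 97.0% identical, and whether the Iglv2 value holds reads of Iglv1 was not tested.

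**Figure D2:**
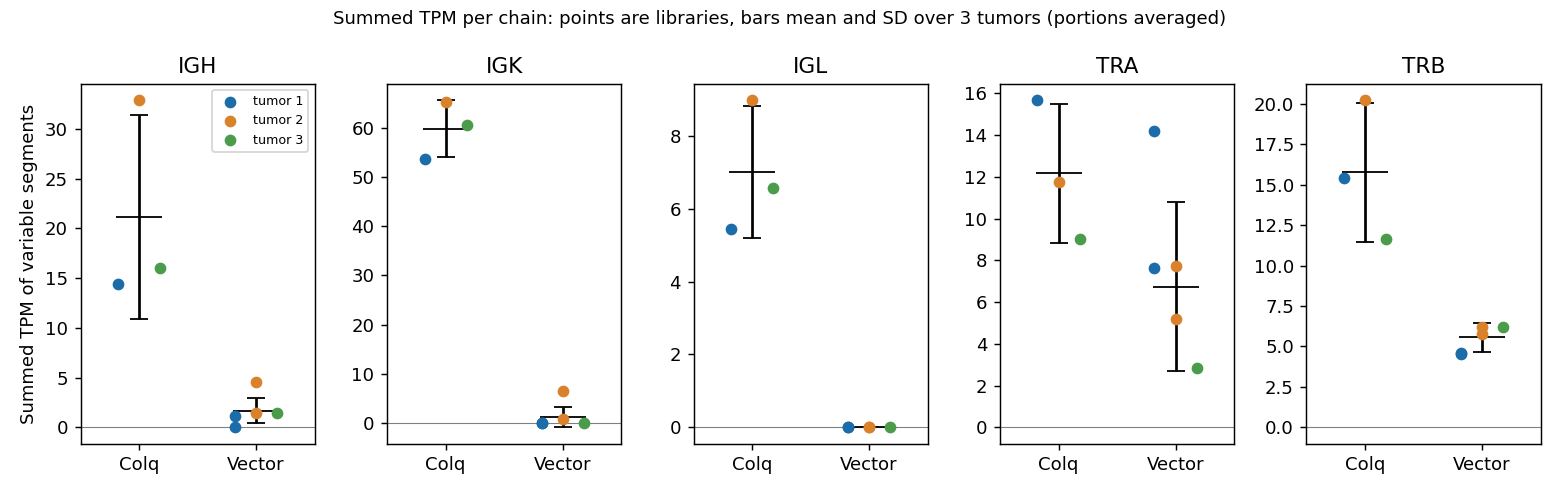
Summed TPM of the variable segments of each chain in every library (points, coloured by tumor number within a group), with the mean and SD over 3 tumors after averaging portions, Colq at the left and vector at the right of each panel; the scales differ between panels. Colq libraries lie at 53.8 to 65.3 TPM for kappa, above the vector libraries at 0 to 6.59 TPM, whereas the alpha panel shows Colq libraries at 9.04 to 15.7 TPM and vector libraries at 2.83 to 14.2 TPM, which overlap.

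Summed by chain, the kappa segments reached 53.8, 65.3 and 60.6 TPM in Colq libraries. In vector libraries they summed to 0 in both portions of tumor 1, 6.59 and 0.70 TPM in those of tumor 2, and 0 in tumor 3. The Colq mean was 59.9 ± 5.81 TPM and the vector mean 1.22 ± 2.10 TPM (SD, n = 3 each). Heavy chain segments summed to 14.4, 32.9 and 16.1 TPM in Colq libraries and 0 to 4.59 TPM in vector libraries, with means of 21.1 ± 10.2 TPM in Colq and 1.67 ± 1.23 TPM in vector tumors. These sums are scores over the members and are given as a description, with no test.

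The sums of the T cell receptor chains lay closer together, and the groups were apart for the beta chain but not for the alpha chain. Beta segments summed to 15.4, 20.2 and 11.6 TPM in Colq libraries and 4.57, 4.52, 6.23, 5.77 and 6.19 TPM in vector libraries (portions of tumor 1, portions of tumor 2, tumor 3). The groups did not overlap, with means of 15.8 ± 4.32 TPM in Colq and 5.58 ± 0.90 TPM in vector tumors. Alpha segments summed to 15.7, 11.8 and 9.04 TPM in Colq libraries and 14.2, 7.64, 7.71, 5.17 and 2.83 TPM in vector libraries. They overlapped, with means of 12.2 ± 3.34 TPM in Colq and 6.73 ± 4.05 TPM in vector tumors.

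Alpha segments were spread thinly over tumors. Of 57, 53 were above 0 in a library: 33 in a Colq tumor, 31 in a vector tumor and 11 in both. Of the 33, 2 were above 0 in all 3 Colq tumors, and 25 in 1. Those 2 were Trav8n-2 and Trav4-4-dv10. Trav8n-2 was at 1.87, 2.08 and 1.08 TPM in Colq libraries, against 1.86 TPM in the first portion of vector tumor 1 and 0 in the other 4 vector libraries, so that the groups overlapped; it lay just outside the filter, and without it had a log2 difference of 1.15 (SE 0.27, adjusted p = 0.017, limma). Trav4-4-dv10, a segment that the alpha and delta chains can both use, was at 1.39, 0.62 and 0.54 TPM in Colq libraries, against 1.89 and 0 TPM in the portions of vector tumor 1, 0.95 and 0.81 TPM in those of vector tumor 2, and 0 in vector tumor 3. It showed no order between the groups.

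The other leading alpha segments were each carried by 1 or 2 tumors. Trav3-3 was at 2.60 and 2.33 TPM in Colq tumors 1 and 2 and at 0 in the other 6 libraries. Trav7d-2 was at 2.83 TPM in Colq tumor 3 alone. On the vector side, Trav9-1 (2.32 TPM) and Trav14n-3 (2.23 TPM) were above 0 in the second portion of vector tumor 1 alone, and Trav22 (2.23 TPM), annotated as a pseudogene, in its first portion alone. The top alpha segment made up 16.6% to 31.3% of the chain's TPM in Colq libraries and 15.7% to 32.2% in vector libraries.

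**Figure D3:**
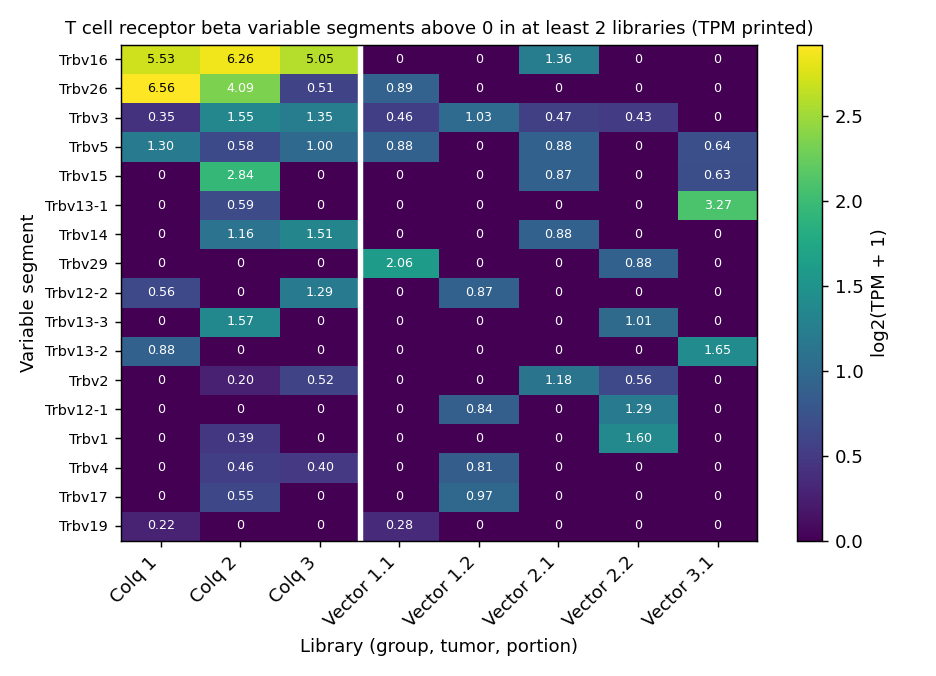
TPM of the T cell receptor beta variable segments above 0 in at least 2 libraries (rows), in 3 Colq libraries at the left of the white line and 5 vector libraries at the right (columns, named by tumor and portion); the colour is log2(TPM + 1). Trbv16 is above 5 TPM in each Colq library and at 1.36 TPM in 1 vector library, and most other segments appear in both groups.

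Beta segments were nearly all seen in both groups: 15 of the 19 were above 0 in a Colq tumor, and each of these also in a vector tumor. In all, 18 were above 0 in a vector tumor, 3 of them in vector tumors alone. Trbv16 had the highest mean level of the beta segments in Colq tumors. It was at 5.53, 6.26 and 5.05 TPM in Colq libraries, against 1.36 TPM in the first portion of vector tumor 2 and 0 in the other 4 vector libraries. The groups did not overlap, and the log2 difference was 2.51 (SE 0.21, adjusted p = 4.7e-05 with the filter and 3.5e-04 without, limma).

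Trbv26 was at 6.56, 4.09 and 0.51 TPM in Colq libraries, against 0.89 TPM in the first portion of vector tumor 1 and 0 in the other 4. Colq tumor 3 lay below that portion, so the groups overlapped. The log2 difference of 1.80 (SE 0.55, adjusted p = 0.021, limma) was not called without the filter (adjusted p = 0.061), with the length trend removed (0.087), or without Colq replicate 1 (0.064), Colq replicate 2 (0.073) or Vector replicate 2 (0.063).

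Trbv3 was the most widely seen segment of all, above 0 in 7 of 8 libraries: 0.35, 1.55 and 1.35 TPM in Colq libraries, and 0.46, 1.03, 0.47, 0.43 and 0 TPM in vector libraries. Trbv5 was at 1.30, 0.58 and 1.00 TPM in Colq libraries, and 0.88, 0, 0.88, 0 and 0.64 TPM in vector libraries. Both overlapped between the groups. The highest vector values belonged to Trbv13-1, with 0.59 TPM in Colq tumor 2 against 3.27 TPM in vector tumor 3, and to Trbv29, listed at 0 in all 3 Colq libraries against 2.06 TPM in the first portion of vector tumor 1 and 0.88 TPM in the second portion of vector tumor 2. Trbv13-2 was at 0.88 TPM in Colq tumor 1, against 1.65 TPM in vector tumor 3, and at 0 in the other 6 libraries. Trbv13-1 was the single segment with a vector mean of at least 1 TPM, and a fit filtered on vector tumors did not call it.

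**Figure D4:**
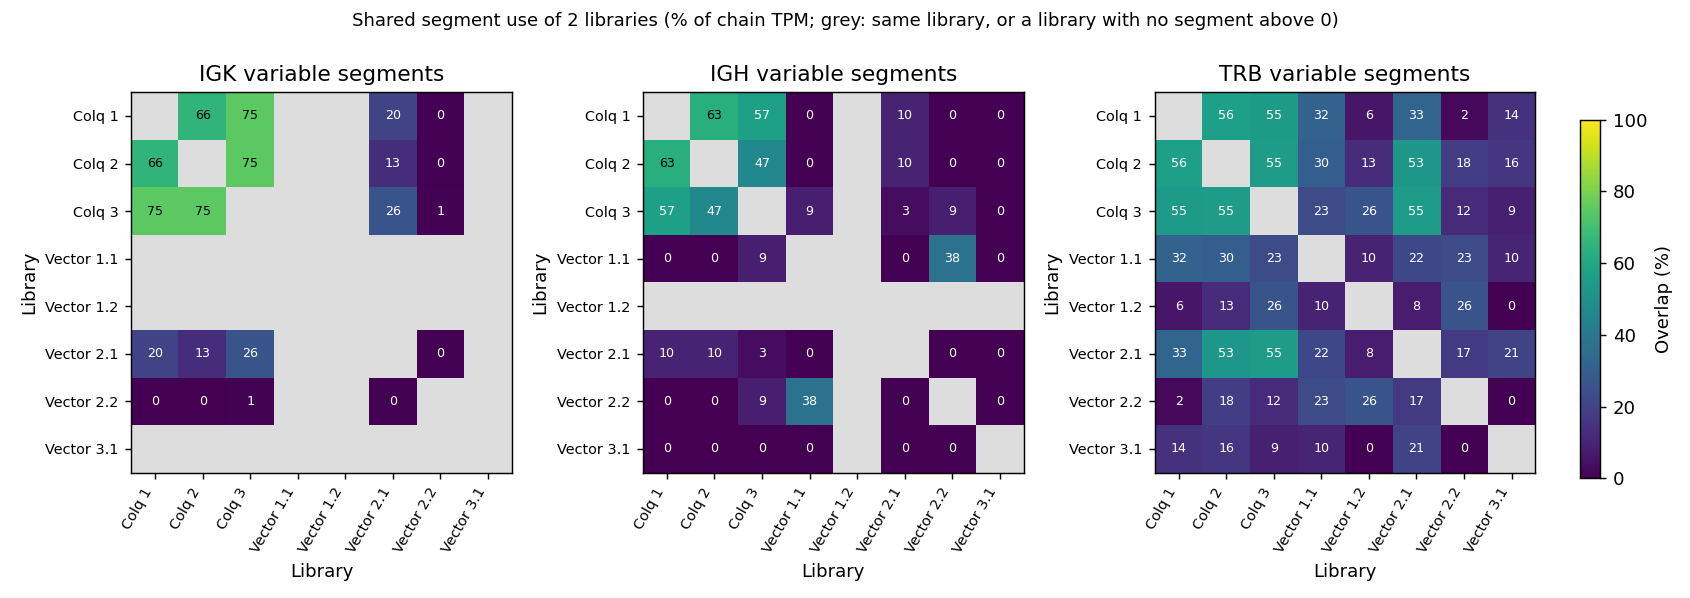
Overlap of segment use between each pair of libraries, in % of the chain's TPM (the sum over segments of the smaller of the 2 shares), for kappa, heavy chain and beta segments; Colq libraries come before vector libraries on both axes, and grey marks a library with itself or one with no segment above 0. Colq pairs stand at 65.5% to 75.0% for kappa, and the portions of a vector tumor at 10.1% and 17.2% for beta.

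In kappa, heavy chain and beta segments, the segments read overlapped more among Colq libraries than between pieces of a vector tumor. In alpha segments the ranges overlapped. Vector libraries held far fewer kappa and heavy chain segments, and likeness cannot be told apart from sparse reading there. For each pair of libraries the overlap was taken as the sum, over segments, of the smaller of the 2 shares of the chain's TPM. Colq libraries overlapped by 65.5% to 75.0% in kappa, 46.6% to 63.3% in heavy chain, 54.6% to 56.3% in beta and 17.2% to 49.4% in alpha segments. The portions of vector tumor 2, the single vector tumor with such segments in both, overlapped by 0 in kappa and in heavy chain segments. They held 5 and 1 kappa and 4 and 2 heavy chain segments, so a few reads set these values. Each Colq library held 14 to 16 kappa and 10 heavy chain segments. The portions of 1 vector tumor overlapped by 10.1% and 17.2% in beta and by 7.24% and 22.8% in alpha segments. They shared 1 of 9 beta segments in vector tumor 1 and 2 of 11 in vector tumor 2, and 3 of 18 and 3 of 14 alpha segments.

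Different vector tumors overlapped by 0 to 26.0% in beta and 0 to 33.9% in alpha segments. Colq and vector libraries overlapped by 2.27% to 55.4% in beta segments, the highest with the first portion of vector tumor 2. In vector libraries these shares rest on 4 to 7 beta segments of low level, so a few reads can move them. For kappa segments only vector tumor 2 could be set beside Colq tumors, at 0 to 25.9%. The values carry no test, because pairs share libraries.

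The constant genes of the same chains were read from the same libraries, and every receptor transcript of a chain carries one. The mu heavy chain gene Ighm was at 37.1, 34.8 and 39.6 TPM in Colq libraries and 4.10, 5.25, 11.7, 8.99 and 2.55 TPM in vector libraries (log2 difference 2.65, SE 0.37, adjusted p = 4.6e-04, limma). The kappa gene Igkc was at 48.5, 50.3 and 46.7 TPM in Colq libraries and 2.22, 1.42, 9.82, 3.10 and 0.83 TPM in vector libraries (log2 difference 3.93, SE 0.42, adjusted p = 1.3e-04, limma). Jchain, which links IgM and IgA into polymers for secretion, was at 6.14, 5.54 and 6.38 TPM in Colq libraries and 0.07, 0, 0.23, 0.22 and 0 TPM in vector libraries (log2 difference 2.70, SE 0.15, adjusted p = 1.7e-05, limma). All 4 tested members of the 12 genes of immunoglobulin constant regions with Jchain were called higher, where 11.3% of all tested genes were, the fourth being Iglc3 (log2 difference 1.39, adjusted p = 0.0054, limma). Jchain and Iglc3, with vector means of 0.087 and 0.15 TPM, passed the filter only through Colq tumors, so that count is no support. Vector means were 5.85 TPM for Ighm and 3.04 TPM for Igkc. Of the untested members, Igha and Ighg2b had lower means in Colq tumors, and Ighd, Ighg1, Ighg2c, Ighg3, Iglc1 and Iglc2 higher ones.

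The constant genes of the switched heavy chains were low in both groups. Ighg3 was at 0.40, 0.50 and 0.68 TPM in Colq libraries and 0, 0, 0.31, 0 and 0 TPM in vector libraries, with no overlap. Ighg2b went the other way in its means, 0.367 TPM in Colq and 0.565 TPM in vector tumors. Ighg2c averaged 0.79 ± 0.17 TPM in Colq and 0.54 ± 0.19 TPM in vector tumors, and Igha 0.30 ± 0.17 TPM in Colq and 0.58 ± 0.44 TPM in vector tumors (n = 3 each, SD). Set against their constant genes, kappa variable segments summed to 1108, 1298 and 1298 TPM per 1000 TPM of Igkc in Colq libraries, and to 0, 0, 671, 226 and 0 in vector libraries. In 3 of the 5 vector libraries Igkc was thus read where no kappa variable segment was listed above 0.

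Of the T cell receptor constant genes, Trbc1 was at 9.88, 9.58 and 9.95 TPM in Colq libraries and 2.56, 2.51, 3.92, 3.91 and 3.15 TPM in vector libraries (log2 difference 1.38, SE 0.14, adjusted p = 9.8e-05, limma). Trbc2 was called higher as well (1.03, SE 0.21, adjusted p = 0.0033, limma), a call lost with the 3 Colq libraries counted as 1 sample (adjusted p = 0.072). Trac was at 5.47, 4.59 and 6.43 TPM in Colq libraries and 5.13, 3.35, 9.22, 5.65 and 2.42 TPM in vector libraries, and its log2 difference of 0.29 did not pass (SE 0.30, adjusted p = 0.41, limma). The ratio of beta constant to Trac TPM was 3.92, 5.01 and 4.00 in Colq libraries and 1.69, 1.71, 1.42, 2.11 and 3.69 in vector libraries. It was higher in 3 of 3 Colq tumors than in any vector tumor, with p = 0.1 (exact permutation, two-sided, 3 tumors a group), the smallest p that design allows; the ratio was chosen after the values were seen.

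Marker genes of the lymphocytes stand beside these results. Of 10 B cell markers 2 could be tested and 0 were called, and they summed to 4.10 to 5.60 TPM in Colq libraries and 2.65 to 4.87 TPM in vector libraries. Of 10 plasma cell markers 4 were tested, of which Jchain was called higher and Sdc1, Xbp1 and Irf4, which other cells also express, lower. With 59.6% of all tested genes called lower, 3 of 4 is near the background, and 0 of the 4 were lower after size factors. The untested plasma cell markers went both ways. Tnfrsf17, the plasma cell survival receptor, was at 0.95, 0.32 and 0.37 TPM in Colq libraries and listed at 0 in each vector library. Prdm1 was lower, at 0.73, 0.73 and 0.71 TPM in Colq libraries and 1.05 to 1.37 TPM in vector libraries. Means were also lower in Colq tumors for Mzb1 (0.45 against 0.60 TPM) and Derl3 (0.23 against 0.60 TPM). They were higher for Eaf2 (0.44 against 0.21 TPM) and Pou2af1 (0.097 against 0.063 TPM). Of 10 T cell markers, Cd3d and Cd8a were called higher and Lck lower, where 11.3% of all tested genes were called higher and 59.6% lower. After size factors 4 were higher and 0 lower, where 27.3% of all tested genes were higher and 26.8% lower. The T cell markers summed to 28.9 to 33.5 TPM in Colq and 21.1 to 37.9 TPM in vector libraries, which overlap.

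The genes that assemble and mutate receptors were read in the same fit. Of 11 genes of recombination and mutation in the table, 8 were tested, 0 were called higher and 6 lower, where 11.3% of all tested genes were called higher and 59.6% lower, with a median log2 difference of -0.58 beside -0.50 over all tested genes. After size factors 0 were higher and 3 lower. Rag1, a part of the recombinase that cuts the segments, was listed at 0 in all 8 libraries. The 6 called lower, among them the end-joining genes Xrcc5, Xrcc6, Prkdc and Lig4, act in DNA repair in every cell. Of the 5 tested genes of receptor signalling, Cd3d was called higher and none lower.

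**Figure D5:**
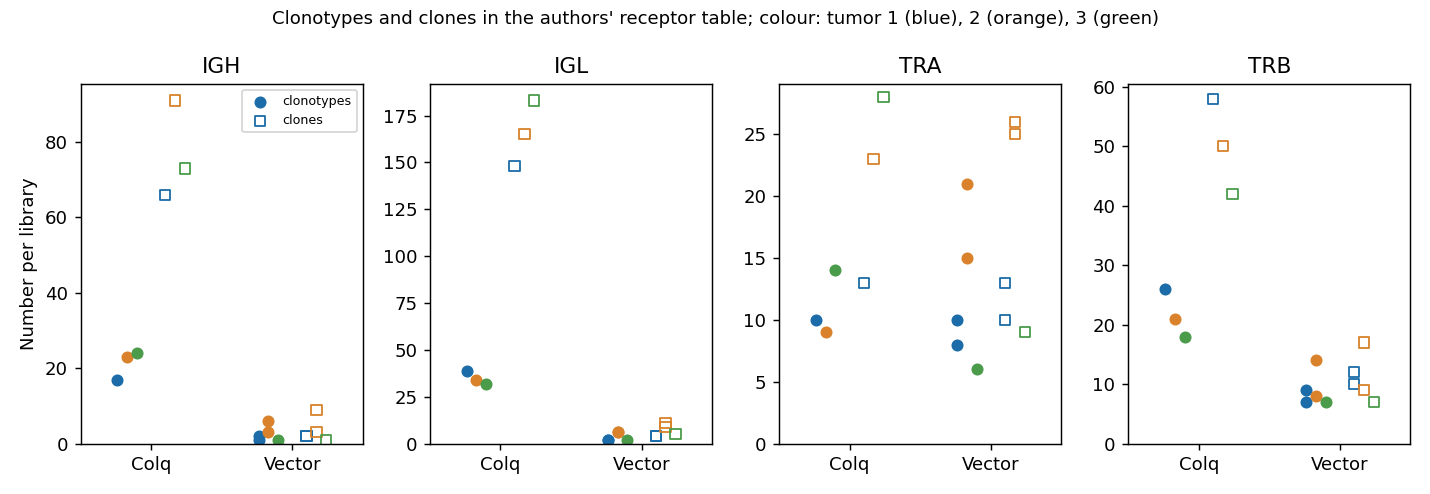
Numbers of clonotypes (filled circles) and clones (open squares) per library in the authors' receptor table for 4 chains, Colq at the left and vector at the right of each panel, coloured by tumor number within a group; the scales differ between panels. Heavy chain clones stand at 66 to 91 in Colq libraries and 1 to 9 in vector libraries, and the alpha values of the groups overlap.

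The authors' receptor table, made with MiXCR from the same libraries, counts rearranged receptors by their junction sequence instead of their germline segment. Heavy chain clones numbered 66, 91 and 73 in Colq libraries, and 2, 2, 9, 3 and 1 in vector libraries. They made up 17, 23 and 24 clonotypes in Colq libraries, and 1, 2, 6, 3 and 1 in vector libraries. Every Colq library held several clones per clonotype, where vector libraries held 1 to 2. The table's light chain rows are named IGL, and no source used here says whether they include kappa chains. They held 148, 165 and 183 clones in Colq libraries, and 4, 4, 11, 9 and 5 in vector libraries.

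Beta clones numbered 58, 50 and 42 in Colq libraries, and 12, 10, 17, 9 and 7 in vector libraries, in 26, 21 and 18 clonotypes in Colq libraries, and 9, 7, 14, 8 and 7 in vector libraries. Beta clonality, which grows as few clones take more of the total, was 0.149, 0.191 and 0.199 in Colq libraries, and 0.0268, 0.0304, 0.05003, 0.0174 and 0 in vector libraries. The vector values rest on 7 to 17 clones, and the part of the number of clones in this difference was not tested. Alpha clones numbered 13, 23 and 28 in Colq libraries, and 13, 10, 26, 25 and 9 in vector libraries, and the groups overlapped. Numbers of clones rise with depth, which the table does not give.

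For clones and clonotypes of the heavy, light and beta chains, each Colq tumor was above each vector tumor, with p = 0.1 (exact permutation, two-sided, 3 tumors a group) and 0.156 after adjustment over 14 measures. No smaller p can be had from 3 against 3. Alpha clones gave p = 0.4 in the exact permutation test, with means of 21.3 ± 7.64 in Colq and 15.3 ± 8.89 in vector tumors (SD, n = 3 each). Alpha clonotypes gave p = 1 in the exact permutation test, with means of 11 ± 2.65 in Colq and 11 ± 6.25 in vector tumors (SD, n = 3 each). The IgM share of the heavy chain in the authors' receptor table was 1, 1 and 0.930 in Colq libraries, and 0, 0, 0.667, 0.333 and 0 in vector libraries. The total that each share was taken over is not given. Heavy chain clones numbered 1 to 9 in vector libraries, so these shares rest on few receptors there.

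The authors' deposited table, a DESeq2 comparison, lists 120 of the 142 segments and gives 14 of them an adjusted p. The authors' deposited table has 10 segments higher in Colq at an adjusted p under 0.05 and 0 lower. Of its 19153 genes with an adjusted p, 3850 (20.1%) were higher and 3904 lower. Only the segments of highest mean normalized count, from 1.64 up, had an adjusted p. All 10 were among the 12 called here, which passed the filter only through their level in Colq tumors. The count of 10 against 0 is thus no support for a difference either. In the authors' deposited table the log2 fold changes of the 5 segments of smallest adjusted p were 8.37 for Igkv1-135 (SE 1.25, adjusted p = 2.3e-10), 6.36 for Iglv1 (SE 1.46, adjusted p = 6.2e-05), 5.88 for Ighv9-4 (SE 1.56, adjusted p = 6.7e-04), 5.21 for Trbv16 (SE 1.45, adjusted p = 0.0013) and 4.50 for Igkv14-126 (SE 1.33, adjusted p = 0.0025). They come from the same libraries and add no separate evidence. Depth limits all of these values: in the authors' deposited table the mean normalized count was 29.8 for Igkv1-135, the single segment at 10 or more, and under 1 for 100 of the 120, so that a value of 0 in a library does not show that a segment was absent there.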

How the data were processed

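Bulk tumor RNA was read as polyadenylated RNA in non-directional libraries, per the labels' protocols, so reads of a segment and of a gene on the other strand were counted alike. Deposited expression is log2(TPM + 1), as 99.9% of rows return to TPM with 2 decimals. The authors used RSEM and build mm39, per the submitters' processing notes (aligner, versions and annotation release not given in the sources used here). The receptor table holds a score of another kind in each row (numbers of clonotypes and clones, entropy, clonality, isotype shares), which per the labels the authors obtained with MiXCR, with no stated scaling to depth. Per the file headers, the authors' comparison gives a mean normalized signal, a log2 fold change, a test score and p-values; the submitters' processing notes name DESeq2. No source used here says which libraries entered it. Its direction follows from Colq, at 5.48 in the authors' deposited table.

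Groups came from the sample titles. Portions of a tumor were averaged on the log2 scale for the fit and as TPM for means. Whether tumors came from separate mice is not stated, and p-values measure the spread between these samples. All genes with a mean of at least 1 TPM over 6 tumors were fitted by limma 3.58.1 (R 4.3.3; eBayes with trend) on log2(TPM + 1), with Benjamini-Hochberg adjustment over 13726 genes. Differences are Colq minus vector and understate the change of low genes. On simulated data for this comparison with 13726 genes, 200 of them changed, 75% of the changes of 1 and 95% of the changes of 2 on the log2 scale were found, with 6 false calls. Single values were compared by an exact permutation test over tumors. Gene lengths and sequences were matched for 141 of 142 members in GENCODE M21 (GRCm38), and identity was computed with Biopython 1.88. Python 3.11.15, pandas 2.3.3, numpy 2.4.6, scipy 1.17.1 and matplotlib 3.10.9 served for the rest.

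The segments, gene lists and tests were chosen with earlier results of these data known. Named segments were, by chain, those of highest mean TPM in each group (5 for heavy and kappa, 3 for alpha and beta, 2 for lambda), the 5 largest differences called, and the 5 of smallest adjusted p in the authors' deposited table, with the constant genes; others were named after their values were seen. Alternatives were pseudocounts of 0.5 and 0.1, other filters, size factors, rescaled TPM, removal of the trend on exonic length (loess, span 0.5), a replicate block, portions handled in other ways, the Colq libraries as 1 sample, and leaving out each tumor. TPM keeps no depth, so no counting interval is given. D and J segments were not analysed here, and 2 genes of the lists are not reported by name here.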

Additional observations from a re-analysis of the deposited data

Results flagged for a closer look

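The first portion of vector tumor 2 stood apart from the other 4 vector libraries in several receptor readouts, by a test of the gap between the most extreme library and its neighbour against the range of the 5. Its kappa segments summed to 6.59 TPM, against 0 to 0.70 TPM in the others, and Igkc was at 9.82 TPM, against 0.83 to 3.10 TPM. The authors' receptor table gave it 9 heavy chain clones, against 1 to 3 in the others, and 14 beta clonotypes, against 7 to 9. The second portion of vector tumor 2 had an alpha clonality of 0.0531, against 0.0240 to 0.0316 in the other vector libraries. In all, 5 of 25 measures met this test; chance flags about 1 in 20 groups, the measures are related to one another, and portions of 1 tumor are not independent. Kappa segments of the first portion that Colq tumors also held were Igkv14-126, Igkv6-15 and Igkv3-5. The cause was not tested.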

How the results depend on the processing

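Of 277 values recomputed for 27 results, 258 stayed within 1.5 times (counts of segments), within 1 SD (sums) or on the same sign (receptor measures), and 0 segments were called lower under any setting. The 12 segments called higher were 12 with either other pseudocount, size factors (3742 genes called higher and 3675 lower, against 1556 and 8181), rescaled TPM, and the Colq libraries counted as 1 sample (788 genes higher and 5712 lower, with the spread taken from vector tumors, where 7 of the 12 are at 0). These settings keep the filter that the 12 passed through their Colq level, so an equal count is no sign of stability. They were 1 at a mean of at least 5 TPM, a kappa segment, and 0 of 1 tested, a beta segment, at a mean of at least 1 TPM in vector tumors, since fewer segments are tested there. With the length trend removed 8 were called, with 1 heavy chain and 1 T cell receptor segment, where 2690 genes were higher (20.4%). Leaving out each tumor gave 9 to 12 segments in all, 1 to 2 heavy chain, 6 to 7 kappa and 1 to 2 T cell receptor segments; without Colq replicate 1 Ighv11-2, Igkv16-104 and Trbv26 were lost. With a replicate block 12 were called (1526 genes higher, 7928 lower), but same-numbered tumors deviated together by correlations of 0.030, 0.0070 and 0.044, so the numbers do not pair them.

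Per 1000 TPM of constant genes, another unit, the Colq mean exceeded the vector mean by 325 (heavy chain), 1085 (kappa), 756 (alpha) and 73.3 (beta). The groups overlapped for alpha (1406 to 2867 in Colq and 836 to 2768 in vector libraries) and for beta (453 to 880 and 476 to 789). For the heavy chain, Colq libraries stood at 368, 860 and 381 and vector libraries at 0 to 327. For lambda a vector library had no constant TPM and no value was had. Counting segments from 0.5 TPM, Colq libraries held 28.3 more than vector libraries, against 34 from above 0. The difference in alpha entropy (-0.224) ran between -0.569 and 0.176 when each tumor was left out, changing sign without Colq replicate 2 (0.0427) and on leaving out Vector replicate 2 (0.176), and that in light chain clonality (0.0323) turned to -0.0119 on first portions only. A kept sign says nothing of size: without Vector replicate 2 or Vector replicate 3 the difference in alpha clonotypes (0) was 3.5 or -2.5, on leaving out each tumor that in alpha clones (6) ran from 2.67 to 11.1 and that in light chain clonality from 3.6e-04 to 0.0922, and heavy chain entropy (1.74) differed by 0.761 on first portions only; the cause was not tested. Low levels limit all single segments, and the smallest exact permutation p over tumors is 0.1.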

Other observations

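Variable segments of the gamma and delta T cell receptor chains had 4 further rows in the table, outside the choice of segments above. These chains form the receptor of a T cell class common in skin. Trdv4 was at 1.12, 0.66 and 0 TPM in Colq libraries, and at 0, 0.55, 0, 0 and 1.60 TPM in vector libraries (portions of tumor 1, portions of tumor 2, tumor 3). Trdv2-1 was at 1.13 TPM in the first portion of vector tumor 1 and at 0 in the other 7 libraries. Trgv2 was at 0.29 TPM in Colq tumor 1, against 0.73 TPM in the second portion of vector tumor 2, and Trgv6 at 0.47 TPM in Colq tumor 3 alone. The groups overlapped for all 4, and none reached the mean of 1 TPM needed for the test.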
